A study of Mus musculus with 6 samples.

Results

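The genes described here encode the proteins of the cytosolic ribosome. They were taken by symbol from the deposited table of mouse cornea expression, as every gene whose symbol is Rpl or Rps followed by a number (with an optional letter a, x, y or l and a further number), together with Rpsa, Rplp0, Rplp1 and Rplp2. The rule found 81 of the 18227 genes in the table. Of these, 76 are canonical ribosomal protein genes, 45 of the large (60S) subunit and 31 of the small (40S) subunit. The other 5 are paralogues that encode another form of a ribosomal protein: Rpl3l, Rpl7l1, Rpl22l1, Rpl39l and Rps27l. Rpl41, Rpl10l and Rps4l were not analysed here. All 81 genes were annotated in GENCODE M21 on the GRCm38 build, and the largest number on 1 chromosome, 14, lay on chromosome 7.

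The samples were corneas of male C57BL/6 mice aged 6 weeks. KO 1 to 3 came from Muc13-/- mice, which lack a transmembrane mucin of epithelial surfaces, and WT 1 to 3 from wild-type mice of the same age and sex. The labels give no other allele, treatment or agent, and do not say which part of Muc13 was deleted or whether each sample is 1 mouse or a pool. P-values therefore measure the spread between these samples, which may in part be technical.

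Each ribosome carries 1 copy of most of these proteins, so their genes are among the most highly and most evenly expressed of any cell. Most of their mRNAs begin with a run of pyrimidines (C and T), the terminal oligopyrimidine tract, through which growth signalling by mTOR controls their translation. In the cornea, the epithelium renews itself continuously from dividing limbal and basal cells, and dividing cells make many ribosomes.

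The start-site regions of these genes were searched for a run of pyrimidines near the annotated start. Such a run need not begin the mRNA, so it is a looser feature than the tract itself. RefSeq promoters (GRCm38.p6) were found for 61 of the 81 genes, 73 promoters in all. A run of at least 8 pyrimidines lay between 20 bases before and 40 bases after the annotated start in 45 of the 73 promoters (61.6%), against 7172 of 32851 RefSeq promoters of the same length (21.8%). The following sequences, 30 bases on either side of the annotated start and written 5′ to 3′, are shown because they carry this run (in capitals) in members whose levels are given below. Rpl3l, which differs from the others in expression, has no run of that length. In Rps27l the run lies wholly before the annotated start. Another annotated start of Rps27l (chr9:66946383-66946442, not printed) has no run of that length in the 30 bases on either side.
Rps6, chr4:86857338-86857397, minus strand: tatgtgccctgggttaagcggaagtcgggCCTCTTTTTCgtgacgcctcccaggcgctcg
Rplp2, chr7:141447621-141447680, plus strand: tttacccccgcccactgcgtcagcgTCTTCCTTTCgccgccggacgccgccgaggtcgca
Rpl38, chr11:114668550-114668609, plus strand: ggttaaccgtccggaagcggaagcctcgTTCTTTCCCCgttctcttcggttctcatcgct
Rpl22l1, chr3:28805478-28805537, plus strand: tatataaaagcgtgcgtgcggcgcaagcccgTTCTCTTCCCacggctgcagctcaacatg
Rps27l, chr9:66946056-66946115, plus strand: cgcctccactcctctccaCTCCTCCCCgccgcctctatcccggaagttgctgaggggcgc
Rpl3l, chr17:24727796-24727855, plus strand: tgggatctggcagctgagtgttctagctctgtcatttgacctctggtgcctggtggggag
Other motifs were searched on both strands of the whole promoters, from 250 bases before to 50 bases after the start. The ETS-type motif CCGGAAG lay in 26 of the 73 promoters (35.6%) and in 8.86% of all promoters, and AAGATGGC, a YY1-type motif, lay in 8 (11.0%) and in 2.75%. The TATA box letters TATAAA lay in 7 (9.59%) and in 13.6%. These are letter matches and not measured binding.

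Sequencing depth was similar throughout: 14068880, 14832519 and 14502167 counts for the KO libraries and 15480347, 15126616 and 14886513 for the WT libraries. Muc13 itself had 9, 4 and 2 counts in the KO libraries, against 18, 21 and 9 in the WT libraries, so KO 1 and WT 3 held the same number. The corneas also held RNA of other eye tissues, in unequal amounts. Levels are given as CPM, counts scaled to a common library size by TMM. The 16 retina markers summed to 38191, 21854 and 22943 CPM in KO 1 to 3, against 74.5, 273 and 24653 CPM in WT 1 to 3. The 18 lens markers summed to 3355, 83603 and 91.4 CPM in KO 1 to 3, against 13.5, 5013 and 37975 CPM in WT 1 to 3, with 6 of the 18 above 0 in WT 1 and all 18 above 0 in the other libraries. Krt12, the keratin that defines corneal epithelium, was at 12665, 11618 and 1345 CPM in KO 1 to 3, against 42059, 31158 and 9994 CPM in WT 1 to 3. WT 1 and WT 2 were thus low in retina RNA and high in epithelial RNA, WT 3 resembled the KO libraries in both, and KO 3 was lowest in Krt12. Because of this, the main results are also given without WT 3 and against WT 3 alone, that is, without WT 1 and WT 2.

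Ribosomal protein genes took up a smaller average share of the counts in KO than in WT corneas, but the shares overlapped. The 81 genes held 3.26, 3.82 and 2.47% of all counts in KO 1 to 3, against 6.35, 5.00 and 3.07% in WT 1 to 3. WT 1 and WT 2 stood above the KO libraries, and WT 3 lay below KO 1 and KO 2. The mean share was 3.19 ± 0.682% in KO and 4.81 ± 1.64% in WT corneas (SD, n = 3 each), a ratio of 0.663. An exact two-sided permutation test gave p = 0.3, and the smallest p that 3 against 3 libraries allow is 0.1. The KO mean was 1.04 times the value of WT 3. Leaving out WT 1 moved the difference of -1.62 percentage points to -0.85, leaving out WT 3 moved it to -2.49, and against WT 3 alone it was 0.111. Counting error was small beside these differences, the widest 95% exact binomial interval being 6.33 to 6.36% for WT 1. In whole tissue, fewer cells of a type and less RNA per cell cannot be told apart.

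Other measures moved with this share. The 12 corneal epithelium markers summed to 35723, 35274 and 6438 CPM in KO 1 to 3, against 115959, 91909 and 27970.5 CPM in WT 1 to 3, and all 12 were above 0 in every library. The 15 proliferation markers, genes of DNA replication and mitosis, summed to 245, 269.8 and 167 CPM in KO 1 to 3, against 800.3, 649.7 and 238 CPM in WT 1 to 3. In both lists WT 1 and WT 2 were highest and KO 3 lowest, as for the ribosomal protein genes. The 14 skeletal muscle markers were also highest in WT 1 and WT 2, at 5405 and 4288 CPM, but lowest in KO 1, at 132 CPM. The part of epithelial, retinal, lens and muscle RNA in the ribosomal protein difference was not tested.

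**Figure D1:**
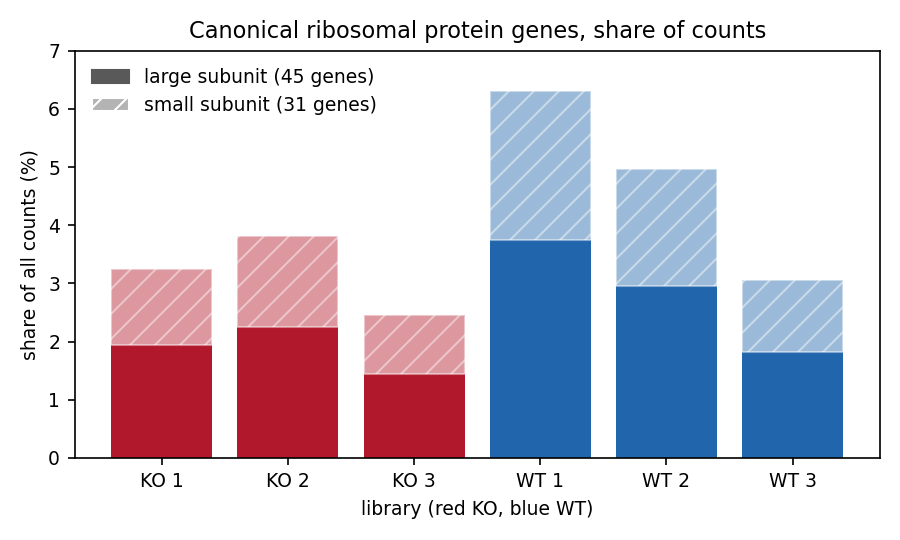
Share of all counts (%) held by the canonical ribosomal protein genes in each library, red for KO and blue for WT, with the 45 large-subunit genes as the solid and the 31 small-subunit genes as the hatched part of each bar. WT 1 and WT 2 stand above the 3 KO libraries, and WT 3 lies between KO 1 and KO 3.

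Both subunits followed the same pattern. Large-subunit genes held 1.93, 2.25 and 1.45% of counts in KO 1 to 3, against 3.74, 2.95 and 1.82% in WT 1 to 3. Small-subunit genes held 1.32, 1.56 and 1.00% in KO 1 to 3, against 2.57, 2.02 and 1.24% in WT 1 to 3. The balance of the subunits within a library, measured as the mean log2 CPM of the large minus that of the small subunit, was -0.0721 ± 0.0134 in KO and -0.0488 ± 0.0150 in WT corneas (SD, n = 3 each). The difference of -0.0233 on the log2 scale gave p = 0.2 in the exact two-sided permutation test. It was -0.0199 without WT 3 (exact permutation p = 0.3) and -0.0299 against WT 3 alone.

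Gene by gene, no ribosomal protein gene passed the test between the genotypes. All 81 passed the filter on low counts, and 0 of 81 had an adjusted p under 0.05 in edgeR's quasi-likelihood test (Benjamini-Hochberg over the 14983 genes tested, smallest adjusted p = 0.501). Over all genes tested, 0% were called lower and 0% higher. At an unadjusted p under 0.05, 2 of the 81 were lower in KO (background 3.66% of genes) and 0 were higher (background 0.721%). DESeq2's Wald test called 0 of the 81 after adjustment (background 0.461% of genes in either direction) and 8 before it (background 8.67% lower), and limma-voom called 0 after adjustment (background 0%) and 2 before it (background 2.27% lower). Without WT 3, edgeR called 18 of the 81, all lower in KO (background 12.9% lower and 21.1% higher), and 75 had an unadjusted p under 0.05 (background 22.8% lower).

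The size of the difference was similar in all canonical genes. The median log2 fold change (KO over WT) was -0.80 over the 81 genes, against 0.02 over all genes tested, and 80 of the 81 were below 0 (background 48.5%). It was -0.80 in the large and -0.78 in the small subunit. Among the 76 canonical genes the values ran from -1.15 to -0.58 with an SD over genes of 0.106, against an SD of 0.879 over all genes tested. Scaling by library size alone gave a median of -0.59, where the median of all genes moved to 0.19. The 81-gene median was -0.44 without WT 1 and -1.10 without WT 3. Set against WT 3 alone it was 0.10, with 69 of the 81 genes above 0 (background 53.8%).

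Nearly all of these genes also ranked the libraries alike. The order WT 1, WT 2, KO 2, KO 1, WT 3, KO 3 from high to low CPM was found in 62 of the 81 genes, and the order with WT 3 ahead of KO 1 in a further 14. WT 1 was highest in 80 genes (background 30.4%), WT 1 and WT 2 lay above the other 4 libraries in 79 (background 34.2%), and KO 3 was lowest in 76 (background 27.2%). WT 3 lay below KO 2 in 79 and below KO 1 in 63. The KO and WT libraries did not overlap in 2 genes, Rpl38 and Rpl7l1, both lower in KO (background 5.51% lower), and in 0 genes higher in KO (background 4.7%).

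**Figure D2:**
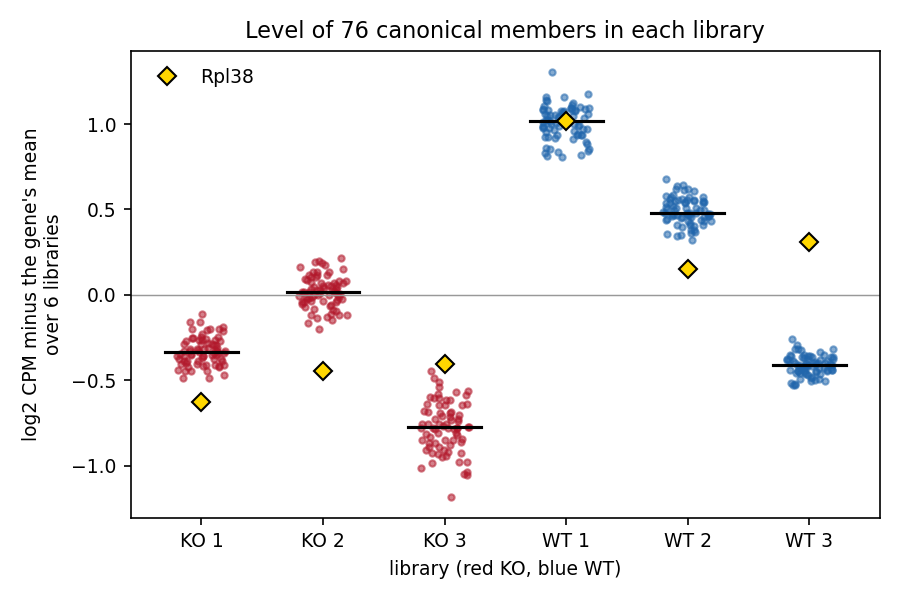
Level of the 76 canonical ribosomal protein genes in each library, as log2 CPM minus the gene's own mean over the 6 libraries, with 1 point per gene, red for KO and blue for WT, a black line at the median and diamonds for Rpl38. The genes move together, with medians of -0.34, 0.02 and -0.78 in KO 1 to 3, against 1.02, 0.48 and -0.41 in WT 1 to 3, while Rpl38 in WT 3 sits at 0.31, away from the rest.

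Members with well known roles illustrate the shared pattern. Rps6 (ENSMUSG00000028495, chr4:86854660-86857412, minus strand), the small-subunit protein phosphorylated by S6 kinase, was at 556, 699 and 421 CPM in KO 1 to 3, against 1214, 928 and 526 CPM in WT 1 to 3. Its groups overlapped, with WT 3 below KO 1 and KO 2 (log2 fold change -0.67, SE 0.424). Rps19, which is mutated in Diamond-Blackfan anaemia in people, was at 238, 325 and 201 CPM in KO 1 to 3, against 649, 436 and 218 CPM in WT 1 to 3 (log2 fold change -0.77, SE 0.459). Rpsa (ENSMUSG00000032518, chr9:120127689-120132369, plus strand), a small-subunit protein also described as a laminin receptor, was at 733, 964 and 625 CPM in KO 1 to 3, against 2017, 1349 and 709.6 CPM in WT 1 to 3 (log2 fold change -0.81, SE 0.483). Rps4x, encoded on the X chromosome, had a log2 fold change of -0.93 (SE 0.483). In all 4, WT 1 held the highest and KO 3 the lowest level, and none passed the test (adjusted p = 0.501 in edgeR's quasi-likelihood test for each).

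The stalk of the large subunit recruits elongation factors and is built from Rplp0, Rplp1 and Rplp2. Rplp0 (ENSMUSG00000067274, chr5:115559467-115563727, plus strand), its base, was at 1266, 1573 and 641 CPM in KO 1 to 3, against 2956, 2214 and 1128 CPM in WT 1 to 3. Of the 3 stalk genes it was the one in which KO 3 lay furthest below KO 1 and KO 2 (log2 fold change -0.86, SE 0.557). Rplp1 was at 559.5, 583 and 447 CPM in KO 1 to 3, against 1209, 961 and 531 CPM in WT 1 to 3 (log2 fold change -0.76, SE 0.396), and Rplp2 at 250.2, 326 and 184 CPM in KO 1 to 3, against 604, 459.8 and 232 CPM in WT 1 to 3 (log2 fold change -0.77, SE 0.437). The log2 fold changes of the 3 differed by less than any of their SEs.

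Rpl5 and Rpl11 form a particle with 5S rRNA that enters the large subunit and, when free, binds the p53 regulator Mdm2. Rpl5 (ENSMUSG00000058558, chr5:107900502-107909005, plus strand) was at 439, 558 and 314 CPM in KO 1 to 3, against 1280.4, 851 and 423 CPM in WT 1 to 3 (log2 fold change -0.96, SE 0.496). Rpl11 (ENSMUSG00000059291, chr4:136028265-136053428, minus strand) was at 294, 427 and 224 CPM in KO 1 to 3, against 781, 510.1 and 289 CPM in WT 1 to 3 (log2 fold change -0.74, SE 0.465). Both ranked the libraries in the commonest order, and neither passed the test (adjusted p = 0.501 in edgeR's quasi-likelihood test).

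The canonical genes with the lowest fold changes were Rpl39, Rpl38 and Rps20, and those with the highest were Rps15, Rps15a and Rps25. Rpl39 (ENSMUSG00000079641, chrX:37082520-37085402, minus strand), a short protein that lines the exit tunnel of the large subunit, was at 159, 194 and 102 CPM in KO 1 to 3, against 519, 324 and 165 CPM in WT 1 to 3 (log2 fold change -1.15, SE 0.492). Rps20, of the head of the small subunit, had a log2 fold change of -0.97 (SE 0.464). At the other end, Rps15 (ENSMUSG00000063457, chr10:80292453-80294114, plus strand), which lies near the decoding site, was at 446, 572 and 411 CPM in KO 1 to 3, against 981, 758 and 398 CPM in WT 1 to 3 (log2 fold change -0.58, SE 0.413). It was the 1 canonical gene in which WT 3 was the lowest library. Rps15a and Rps25 had log2 fold changes of -0.60 (SE 0.418) and -0.61 (SE 0.398). Rpl22 and Rps29, which with Rpl38 and Rpl39 had the smallest p-values of the canonical genes, had log2 fold changes of -0.85 (SE 0.389) and -0.76 (SE 0.352).

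Rpl38 departed from the common order. It encodes a small large-subunit protein that mice need for normal patterning of the axial skeleton (ENSMUSG00000057322, chr11:114668524-114672331, plus strand). It had 671, 745 and 840 counts in KO 1 to 3, against 1786, 1072 and 1367 counts in WT 1 to 3, equal to 44.5, 50.3 and 51.7 CPM in KO 1 to 3, against 139, 76.1 and 85.2 CPM in WT 1 to 3. Every KO library lay below every WT library, and WT 3 was above WT 2 (log2 fold change -1.03, SE 0.267, unadjusted p = 0.00906, adjusted p = 0.501 in edgeR's quasi-likelihood test). Its log2 fold change was -0.80 against WT 3 alone and -1.14 without WT 3. Set against the median of the canonical genes in the same library, its log2 level was -3.07, -3.28 and -2.36 in KO 1 to 3, against -2.77, -3.04 and -2.07 in WT 1 to 3. On this relative scale KO 3 and WT 3 were high and the groups overlapped. Its range over the 6 libraries, 1.21 on the log2 scale, was the widest of the canonical genes, whose median range was 0.275.

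With each library scaled to its own canonical ribosomal protein level, the members were compared again for departures from the common pattern. The canonical genes set this scale, so a change common to them is removed and cannot be seen in this test. None of the 81 passed (0 with an adjusted p under 0.05, smallest 0.584, background 0%, and 0 with an unadjusted p under 0.05, background 0.634%, edgeR's quasi-likelihood test). The SEs of this test can exceed a gene's own spread. Rps13 had an SE of 0.307, while its log2 level relative to the canonical median ranged over only 0.0881 in the 6 libraries. The test therefore cannot show that small departures were absent. Rpl38 had a log2 fold change of -0.28 on this scale (adjusted p = 0.655 in that test). Rpl39 was at -0.32 (SE 0.302) and Rps15 at 0.23 (SE 0.339), the lowest and the highest of the canonical genes by p.

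Of the 5 paralogues, Rpl22l1, Rpl7l1 and Rps27l had a higher mean CPM than Rpl3l and Rpl39l in both groups. Per transcript length, the mean TPM over all libraries was 410 for Rpl22l1, 288 for Rps27l and 40.2 for Rpl7l1. It was 11.9 for Rpl3l and 2.8 for Rpl39l. Each paralogue was set against its canonical partner as a log2 ratio of CPM within a library, and the 5 exact two-sided permutation p-values were adjusted together. The smallest p possible is 0.1, so none could pass.

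Rps27l and Rpl22l1 were detected in every library and followed the canonical genes. Rps27l, a target of p53 in people, was at 34.4, 40.6 and 26.2 CPM in KO 1 to 3, against 93.8, 67.4 and 33.6 CPM in WT 1 to 3 (log2 fold change -0.94, SE 0.407). Its share of the summed counts of Rps27l and Rps27 was 19.2, 16.0 and 16.5% in KO 1 to 3, against 19.9, 19.5 and 17.1% in WT 1 to 3. Its log2 ratio to Rps27 was -2.26 ± 0.169 in KO and -2.11 ± 0.146 in WT libraries (SD, n = 3 each), a difference of -0.15 (exact permutation p = 0.2, adjusted p = 0.5), or 0.01 against WT 3 alone. Rpl22l1, whose mRNA is held down by Rpl22 protein in mice, was at 56.7, 69.9 and 45.9 CPM in KO 1 to 3, against 148, 105 and 57.9 CPM in WT 1 to 3 (log2 fold change -0.85, SE 0.38). Its share of the summed counts of Rpl22l1 and Rpl22 was 23.6, 25.8 and 26.4% in KO 1 to 3, against 25.6, 25.1 and 24.4% in WT 1 to 3. The ratio differed by 0.02 (exact permutation p = 0.8, adjusted p = 0.8), less than the SD of either group, and its sign changed when KO 2, KO 3 or WT 3 was left out.

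Rpl7l1, whose human protein is found on precursors of the large subunit, had nearly the same level in the 3 KO corneas (ENSMUSG00000063888, chr17:46773907-46782672, minus strand). It was at 50.4, 54.1 and 51.7 CPM in KO 1 to 3, against 100.2, 88.0 and 57.4 CPM in WT 1 to 3. No KO library reached the lowest WT library (log2 fold change -0.65, SE 0.235, unadjusted p = 0.0335, adjusted p = 0.501 in edgeR's quasi-likelihood test). Its share of the summed counts of Rpl7l1 and Rpl7 was 8.10, 6.72 and 10.8% in KO 1 to 3, against 6.65, 7.52 and 9.31% in WT 1 to 3. Its log2 ratio to Rpl7 differed by 0.12 (exact permutation p = 0.6, adjusted p = 0.75), with the highest ratio in KO 3 and a difference of -0.08 without that library and -0.16 against WT 3 alone. Its log2 fold change against WT 3 alone was -0.14.

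Rpl3l replaces Rpl3 in ribosomes of striated muscle. It had 14, 104 and 71 counts in KO 1 to 3, against 369, 360 and 33 counts in WT 1 to 3, equal to 0.928, 7.02 and 4.37 CPM in KO 1 to 3, against 28.7, 25.6 and 2.06 CPM in WT 1 to 3 (ENSMUSG00000002500, chr17:24727820-24736143, plus strand). WT 1 and WT 2 stood far above the other 4 libraries, among which KO 2 and KO 3 exceeded WT 3 (log2 fold change -2.19, SE 1.14, adjusted p = 0.501 in edgeR's quasi-likelihood test). Its share of the summed counts of Rpl3l and Rpl3 was 0.146, 0.824 and 0.936% in KO 1 to 3, against 2.07, 2.40 and 0.34% in WT 1 to 3. The log2 ratio to Rpl3 differed by -1.26 (exact permutation p = 0.4, adjusted p = 0.667), or 0.51 against WT 3 alone. The 14 skeletal muscle markers, all above 0 in every library, summed to 132, 1150.3 and 766 CPM in KO 1 to 3, against 5405, 4288 and 439 CPM in WT 1 to 3. The libraries fall in the same order for Rpl3l and for this sum. The part of muscle RNA in the Rpl3l difference was not tested. With WT 3 as the only WT library its log2 fold change was 1.00.

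Rpl39l, known for its expression in testis, was the rarest. It had 11, 28 and 15 counts in KO 1 to 3, against 15, 11 and 18 counts in WT 1 to 3, with KO 2 highest and the groups overlapping. It was the 1 gene of the 81 with a log2 fold change above 0 (0.20, SE 0.528, adjusted p = 0.807 in edgeR's quasi-likelihood test), and the value was -0.32 without KO 2. Its log2 ratio to Rpl39 was -6.90 ± 0.542 in KO and -8.05 ± 0.879 in WT libraries (SD, n = 3 each), a difference of 1.15 (exact permutation p = 0.2, adjusted p = 0.5). Against WT 3 alone the ratio differed by 0.14.

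**Figure D3:**
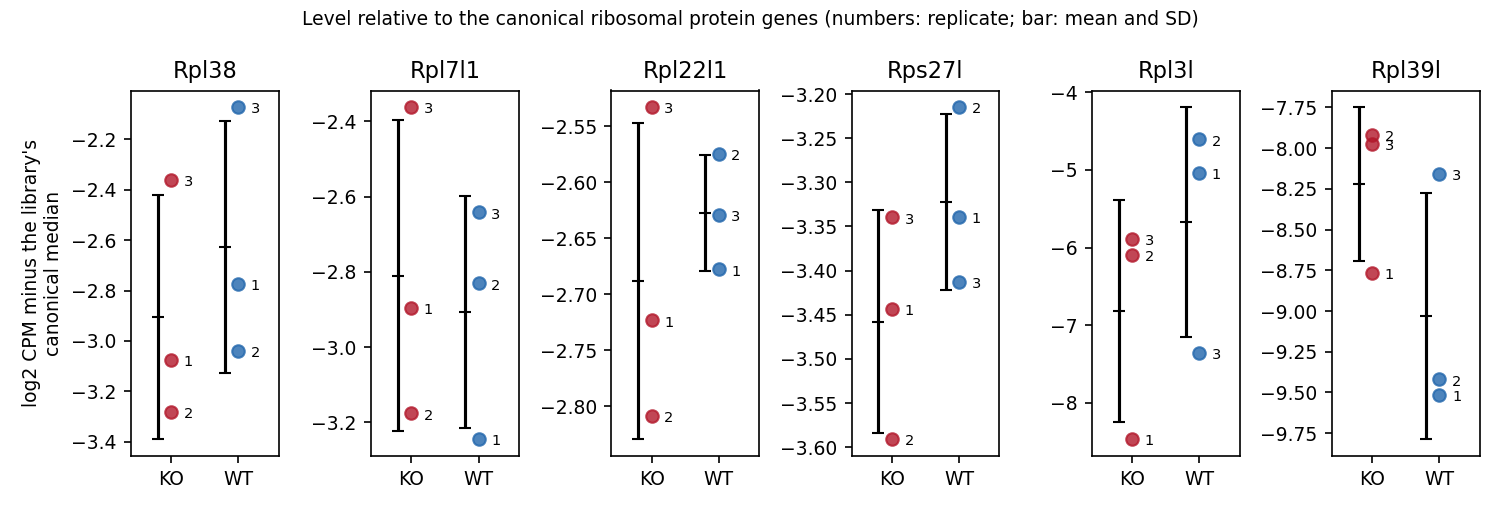
Log2 CPM of Rpl38 and the 5 paralogues minus the median of the canonical genes in the same library, for KO (red) and WT (blue) corneas, with the replicate number beside each point and the mean and SD (n = 3) as bars. KO and WT points overlap in every panel, and Rpl3l and Rpl39l are widely spread; the panels have their own vertical scales.

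Whether reads of a paralogue can be told from those of its partner depends on their sequences. The coding sequences of Rpl39l and Rpl39 (GENCODE M21) are both 156 bases long and share 133 of them (85.3%), and those of Rps27l and Rps27 are both 255 bases long and share 194 (76.1%). They are shown, 5′ to 3′ with differing bases in capitals, because these have the highest percentage of identical bases of the 5 pairs.
Rpl39l: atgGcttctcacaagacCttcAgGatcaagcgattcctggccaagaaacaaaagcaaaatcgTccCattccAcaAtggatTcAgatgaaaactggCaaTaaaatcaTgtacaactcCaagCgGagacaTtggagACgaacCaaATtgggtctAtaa
Rpl39: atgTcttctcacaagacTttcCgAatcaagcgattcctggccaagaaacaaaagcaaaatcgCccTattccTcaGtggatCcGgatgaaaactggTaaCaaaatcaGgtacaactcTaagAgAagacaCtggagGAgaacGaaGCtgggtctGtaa
Rps27l: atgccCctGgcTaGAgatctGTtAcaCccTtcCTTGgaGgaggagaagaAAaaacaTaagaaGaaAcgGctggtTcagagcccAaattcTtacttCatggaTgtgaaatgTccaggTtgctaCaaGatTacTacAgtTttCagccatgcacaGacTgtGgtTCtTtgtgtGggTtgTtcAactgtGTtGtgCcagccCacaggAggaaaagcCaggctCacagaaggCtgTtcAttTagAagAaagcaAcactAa
Rps27: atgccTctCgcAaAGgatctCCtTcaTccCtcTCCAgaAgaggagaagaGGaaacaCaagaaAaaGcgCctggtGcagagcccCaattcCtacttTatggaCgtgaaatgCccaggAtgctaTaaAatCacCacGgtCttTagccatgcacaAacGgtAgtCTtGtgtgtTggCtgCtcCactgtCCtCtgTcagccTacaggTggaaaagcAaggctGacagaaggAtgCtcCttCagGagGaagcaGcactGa
The longest stretch with no difference is 38 bases in the Rpl39 pair and 11 bases in the Rps27 pair. It is 26 bases in the Rpl22 pair, 22 in the Rpl3 pair and 10 in the Rpl7 pair. By this measure the Rpl22 and Rpl3 pairs are more alike than the Rps27 pair. The other pairs share 73.3% (Rpl3l and Rpl3), 68.2% (Rpl22l1 and Rpl22) and 54.0% (Rpl7l1 and Rpl7) of aligned bases.

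Some canonical genes have near-identical copies elsewhere in the genome, so that reads can match both. The deposited counts were not whole in 10 of the 81 genes, as happens when a counting program divides reads between loci. A large division was that between Rpl10, which completes the large subunit late in its assembly (ENSMUSG00000008682, chrX:74270812-74273135, plus strand), and Rpl10-ps3 (ENSMUSG00000058443) on chromosome 9, whose 645 coding bases are identical to those of Rpl10. Rpl10-ps3 took 51.2, 57.8 and 67.2% of the counts of the pair in KO 1 to 3, against 58.5, 59.0 and 56.0% in WT 1 to 3. KO 3 had the highest and KO 1 the lowest share. The pair together held 8853, 12202 and 7380 counts in KO 1 to 3, against 18341, 14718 and 8591 in WT 1 to 3. The split is therefore an estimate and the level of Rpl10 alone is uncertain. Over the members with whole counts only, the median log2 fold change was -0.82.

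Per length, these genes are strongly expressed and mostly close together. In the deposited TPM (a level per transcript length, scaled to 1 total in every library), the 81 genes made up 12.0, 11.7 and 8.03% of the total in KO 1 to 3, against 16.9, 15.4 and 10.4% in WT 1 to 3. The mean TPM over all 6 libraries had a median of 1369 over the 76 canonical genes, and 61 of them lay within 2-fold of it. The highest were Rpl13a, Rplp1 and Rps27. Rpl13a averaged 3778 ± 810.4 TPM in KO and 5195 ± 1263 TPM in WT corneas (SD, n = 3 each). The lowest were Rps20, Rps16 and Rpl37, with Rps20 at 119 ± 18.2 TPM in KO and 183 ± 54.7 TPM in WT corneas (SD, n = 3 each). Rps20 had 38.6 counts per TPM, against a median of 5.13 over the canonical genes, and its GENCODE transcripts run from 512 to 3706 bases. Its low TPM thus goes with the long length assigned to it, and its counts were not low. Rps27 had 0.804 counts per TPM, the fewest of the canonical genes, so its high TPM goes with a short assigned length. In CPM, Rps27 lay below the canonical median in every library.

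**Figure D4:**
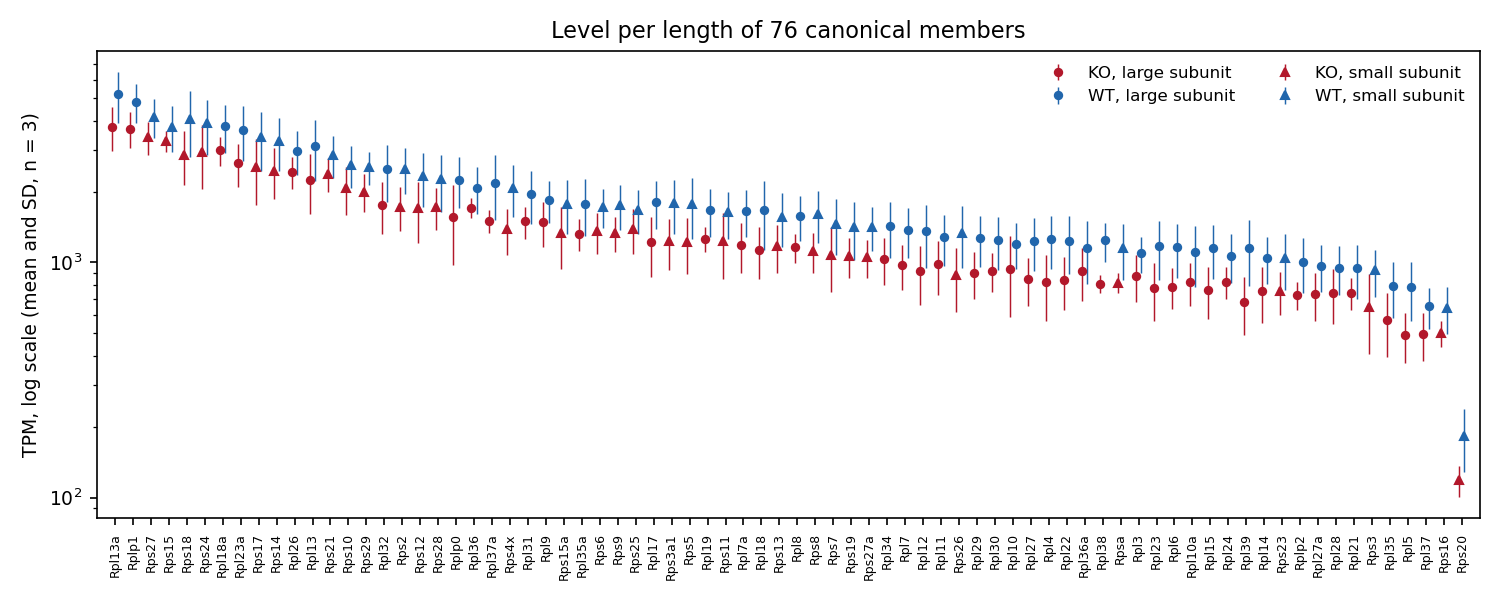
Deposited TPM of the 76 canonical ribosomal protein genes on a log axis, ordered by the mean over all 6 libraries, with KO in red and WT in blue, circles for the large and triangles for the small subunit, and bars for the SD (n = 3 each). The KO mean is below the WT mean in the genes shown, and Rps20 lies apart at the low end.

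Genes that work with the ribosome were compared by lists. The 3 other cytosolic ribosomal genes outside the symbol rule (Rack1, Fau and Rpl36al) had a median log2 fold change of -0.87. Of these, 3 of 3 were below 0 (background 48.5%) and none passed the test (background 0%). Without WT 3 the median was -1.18 and 2 of the 3 passed, lower in KO (background 12.9% lower and 21.1% higher). Rack1, a signalling scaffold on the small subunit, was at 576, 766 and 364 CPM in KO 1 to 3, against 1502, 1083 and 536 CPM in WT 1 to 3 (log2 fold change -0.87, SE 0.512). Rpl36al, a copy of Rpl36a at another locus, had a log2 fold change of -0.94 (SE 0.408), and Fau, which encodes a small-subunit protein fused to a ubiquitin-like one, had -0.66 (SE 0.382).

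Of 37 translation factors, 0 passed the test in either direction and 1 was lower at an unadjusted p under 0.05 (background 3.66%). In all, 35 were below 0 (background 48.5%), with a median log2 fold change of -0.57. Every KO library lay below every WT library in 1 of the 37 (background 5.51%) and above in 0 (background 4.7%). Without WT 3, 13 of the 37 passed, all lower in KO (background 12.9%), and the median was -0.79. Eif6, which keeps free large subunits from joining small ones, was at 69.7, 63.5 and 38.5 CPM in KO 1 to 3, against 179, 143 and 66.4 CPM in WT 1 to 3 (log2 fold change -1.18, SE 0.434, adjusted p = 0.501 in edgeR's quasi-likelihood test). Its groups overlapped through WT 3.

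Of 40 ribosome biogenesis genes, 0 passed in either direction and 3 were lower at an unadjusted p under 0.05 (background 3.66%). In all, 32 were below 0 (background 48.5%), with a median of -0.31. Without WT 3, 11 passed as lower (background 12.9%) and 1 as higher in KO (background 21.1%), and the median was -0.40. The 3 with an unadjusted p under 0.05 were Nhp2 and Dkc1, parts of the complex that makes pseudouridine in rRNA, with log2 fold changes of -1.02 (SE 0.393) and -0.65 (SE 0.241), and Bop1, a large-subunit maturation factor, with -0.55 (SE 0.215). Dkc1 was at 22.3, 22.0 and 17.4 CPM in KO 1 to 3, against 40.7, 30.9 and 25.0 CPM in WT 1 to 3, and Bop1 at 27.4, 30.6 and 28.8 CPM in KO 1 to 3, against 51.7, 43.5 and 31.8 CPM in WT 1 to 3. Every KO library lay below every WT library in 7 of the 40 genes, Dkc1 and Bop1 among them (background 5.51%), and above every WT library in 1 (background 4.7%).

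Of 78 mitochondrial ribosomal protein genes, 0 passed in either direction and 1 was lower at an unadjusted p under 0.05 (background 3.66%). This was Mrps18b (log2 fold change -0.81, SE 0.318). In all, 68 were below 0 (background 48.5%), with a median of -0.26. Every KO library lay below every WT library in 5 of the 78 (background 5.51%) and above in 0 (background 4.7%). Without WT 3, 9 of the 78 passed, all lower in KO (background 12.9%), and the median was -0.37. The medians of the last 3 lists lay between the -0.80 of the cytosolic ribosomal protein genes and the 0.02 of all genes. With scaling by library size alone they were -0.37 for translation factors, -0.12 for ribosome biogenesis and -0.07 for mitochondrial ribosomal proteins, below the 0.19 of all genes. Against WT 3 alone the medians were 0.09 for the other cytosolic ribosomal genes, 0.04 for translation factors, -0.03 for ribosome biogenesis and 0.04 for mitochondrial ribosomal proteins, against 0.01 for all genes.

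**Figure D5:**
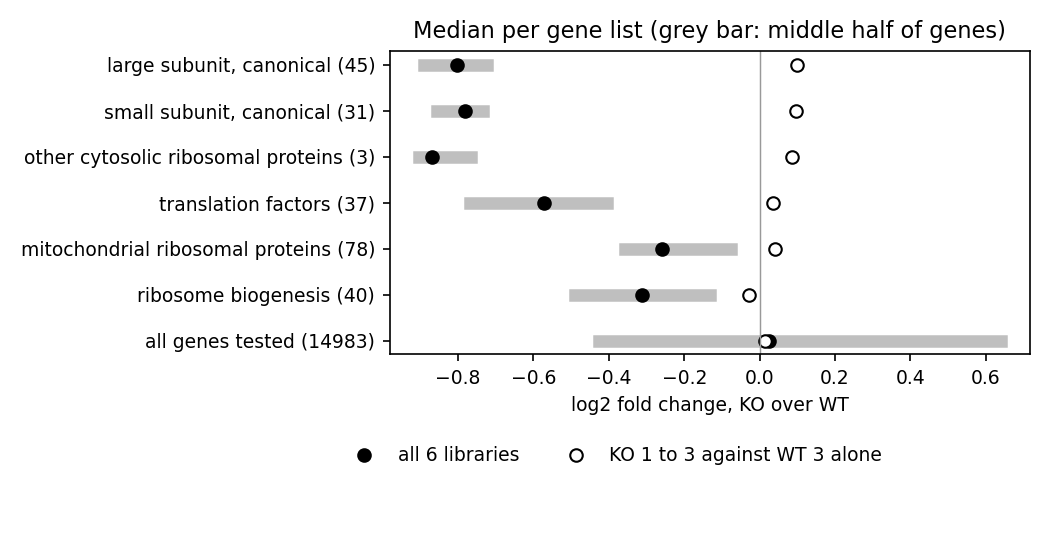
Median log2 fold change (KO over WT) of each gene list, with the number of genes in brackets and grey bars from the first to the third quartile over genes. Filled circles use all 6 libraries and open circles set KO 1 to 3 against WT 3 alone; the filled circles run from -0.87 for the 3 other cytosolic ribosomal genes to 0.02 for all genes tested, and the open circles lie between -0.03 and 0.10.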

How the data were processed

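RNA of 6 cornea samples was sequenced (3 KO, 3 WT, grouped by the genotype in the labels). The authors deposited expected counts (estimated reads per gene, not normalized) and TPM (per transcript length) for 18227 genes, per the file headers; 20 other columns were not used. The build named in the submitters' processing notes is GRCm38 (mm10); the aligner, the counter and whether strand was used were not given in the sources used here. Identifiers were matched to GENCODE M21 (18181 of 18227 genes).

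Expected counts were rounded to whole numbers and tested in R 4.3.3 with edgeR 4.0.16 (quasi-likelihood test, TMM scaling, filterByExpr, robust dispersion, genotype as the only term), with a threshold of 0.05 on p-values adjusted by Benjamini-Hochberg over the 14983 genes kept; 3244 were removed. DESeq2 1.42.0 and limma 3.58.1 (voom) were alternatives, with other scalings, other filters, a block on replicate number and each library left out. The common dispersion corresponded to a coefficient of variation of 0.585. Log2 CPM used a prior count of 2 for subunit and paralogue comparisons, which were tested by exact two-sided permutation over libraries. For the ribosomal scaling, each library was scaled by the geometric mean of its canonical ribosomal protein counts. The scripts were tested on simulated data. Intervals cover counting error only.

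A canonical gene is a ribosomal protein gene proper, as opposed to a paralogue. Counts were taken as whole within 1e-06. The members and lists were chosen with earlier results of these data known. Named genes are a fixed set of stalk, 5S particle, paralogue and other well known genes, and the canonical genes at the extremes of p, fold change and TPM; from other lists, at most 3 by smallest p. 1 further cytosolic ribosomal gene outside the symbol rule is not reported here. Same-numbered KO and WT libraries were not paired by the labels, and their deviations from the group means correlated at 0.0904, 0.363 and 0.189, not all over 0.1.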

Additional observations from a re-analysis of the deposited data

How the results depend on the processing

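The count of ribosomal protein genes past the test was 0 with either other scaling (DESeq2's factors or library size), without the filter or with one of 1 CPM in 3 libraries, and with DESeq2's Wald test, limma-voom or the replicate block; leaving out 1 library gave 0 to 18, with 18 without WT 3. Under ribosomal scaling it was 0 in every alternative run. Without WT 3 that scaling called 5671 of the 15166 genes tested, none of them members. The other runs with that scaling called 0 genes, members or not. The median log2 fold change ran from -0.82 to -0.59 over the scalings, filters, tools, block and member choices and from -1.10 to -0.44 with 1 library left out. Against WT 3 alone it moved to 0.10, and the difference in share to 0.111 percentage points. The cause was not tested; no count of calls is given for that comparison, which has 1 WT library. With 1 library left out, the share difference ran from -2.49 to -0.85.

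The paralogue log2 ratio changed sign for Rpl7l1 without KO 3 (-0.077) and for Rpl22l1 without KO 2 (-0.00066), KO 3 (-0.023) and WT 3 (-0.0033). Against WT 3 alone it changed sign for Rpl7l1 (-0.16), Rps27l (0.01) and Rpl3l (0.51). With 1 library left out, the Rpl7l1 ratio difference ran from -0.077 to 0.297 and that of Rpl22l1 from -0.023 to 0.0868. The log2 fold change of Rpl39l was -0.32 without KO 2 and at most 0.46 with another library left out. Over 30 named genes and 14 alternatives, 381 of 420 values were unchanged, 10 passed without WT 3 and 1 changed sign. Unchanged meant the same direction and side of the threshold or, against WT 3 alone, a shift smaller than the within-group SD. Against WT 3 alone 28 moved by at least that SD, and changes of sign were not counted there. Rpl10 went from -0.68 to 0.15 in that comparison, whereas Rpl22 kept its sign, from -0.85 to -0.07.

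With the replicate number as a block, edgeR called 0 of 81 members, 16 had an unadjusted p under 0.05 (background 11.5% lower) and the median was -0.72. Paired by number, the share was lower in KO in 3 of 3 pairs, with an exact p of 0.25, the smallest that 3 pairs allow. WT 2 and WT 3 correlated best with the KO library of their own number (0.363 and 0.189), as did each KO library with its WT library, but WT 1 correlated best with KO 2 (0.180, against 0.0904 with KO 1); the labels give no pairing. Counting error is small for the canonical genes, but depth limits Rpl39l, at 11 to 28 counts.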
